A study of Mus musculus with 12 samples.

Results

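The tumour necrosis factor (TNF) superfamily ligands described here were 10 genes chosen by symbol: Tnf, Lta, Ltb, Tnfsf8, Tnfsf11, Tnfsf14, Cd40lg, Fasl, Cd70 and Tnfsf10. All 10 were measured, each by 1 probe set, among 23185 genes tested. The cells were splenic CD4 T cells of mice whose age was not stated, and 12 whole-transcript expression arrays covered 4 groups of 3. The 4 groups were Lck-Cre-;Ikzf+/+ cells at baseline, the same genotype after 24 h on plates coated with anti-CD3 with anti-CD28 in the medium, and Lck-Cre+;Ikzf-/- cells in both states. They are called Cre- and Cre+ cells, at baseline and activated. Ikaros, a zinc finger transcription factor of lymphocytes, is the product of the deleted gene, and Cre was driven by the promoter of Lck, a kinase gene of the T lineage, so the deletion was aimed at T cells and not at other spleen cells. Baseline cells were left untreated, so an activation difference compares stimulated cells with untreated cells.

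These ligands are mostly membrane-anchored trimers, and several are also cut from the cell surface or secreted. They bind receptors of the TNF receptor superfamily, which recruit TRAF adaptors and switch on NF-kappaB, and a subset with death domains can start caspase-driven cell death. Activated CD4 T cells use them to license B cells and dendritic cells (CD40 ligand), to drive inflammation (TNF, lymphotoxin), to signal to osteoclast precursors and dendritic cells (RANKL) and to kill other cells or each other (Fas ligand, TRAIL).

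Expression was given as log2 values, so a difference of 1 is a 2-fold one, and probe sets of different genes were not compared in level. The promoters of the genes that the results turn on are shown first: Tnf, Lta and Ltb, which lie side by side on chromosome 17 and did not move together, and Tnfsf11 and Fasl, which had the largest genotype differences of the 10 after activation. Each run is the 250 bases before the gene's start in the GRCm38.p6 build of RefSeq, written along the gene's own strand: chr17:35202008-35202257 on the minus strand for Tnf, chr17:35205352-35205601 on the minus strand for Lta, chr17:35194257-35194506 on the plus strand for Ltb, chr14:78308044-78308293 on the minus strand for Tnfsf11 and chr1:161788496-161788745 on the minus strand for Fasl. Capitals mark matches to GGGAA, the core shared by Ikaros and NF-kappaB sites, and to GGAAA, the NFAT core, on either strand, where they read TTCCC and TTTCC. Both overlap in GGGAAA.
Tnf: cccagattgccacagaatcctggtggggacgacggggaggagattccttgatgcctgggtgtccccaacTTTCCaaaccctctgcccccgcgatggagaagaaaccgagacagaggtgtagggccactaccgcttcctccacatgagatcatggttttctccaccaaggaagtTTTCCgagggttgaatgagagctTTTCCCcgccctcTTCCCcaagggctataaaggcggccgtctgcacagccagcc
Lta: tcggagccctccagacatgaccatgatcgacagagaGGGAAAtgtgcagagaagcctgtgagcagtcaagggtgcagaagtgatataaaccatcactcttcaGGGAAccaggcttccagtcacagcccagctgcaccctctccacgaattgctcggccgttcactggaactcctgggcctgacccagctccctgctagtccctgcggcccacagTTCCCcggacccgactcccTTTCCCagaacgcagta
Ltb: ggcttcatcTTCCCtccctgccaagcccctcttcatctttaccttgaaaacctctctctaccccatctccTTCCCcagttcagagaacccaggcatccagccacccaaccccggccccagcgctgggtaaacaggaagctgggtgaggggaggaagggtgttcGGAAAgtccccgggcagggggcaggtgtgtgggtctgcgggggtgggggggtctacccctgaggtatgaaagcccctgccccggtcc
Tnfsf11: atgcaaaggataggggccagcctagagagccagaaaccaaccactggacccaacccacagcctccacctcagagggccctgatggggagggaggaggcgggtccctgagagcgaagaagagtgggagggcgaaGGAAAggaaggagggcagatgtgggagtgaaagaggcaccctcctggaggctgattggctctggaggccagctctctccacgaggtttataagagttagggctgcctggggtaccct
Fasl: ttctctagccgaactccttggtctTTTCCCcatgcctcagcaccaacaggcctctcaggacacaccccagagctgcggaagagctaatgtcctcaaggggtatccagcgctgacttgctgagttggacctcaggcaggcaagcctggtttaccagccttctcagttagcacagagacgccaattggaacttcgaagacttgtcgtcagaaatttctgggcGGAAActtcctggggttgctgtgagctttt
The table of promoters held 8 of the 10 genes, without Cd40lg and Cd70, and matches were counted over 300 bases, the 250 shown and the 50 after the start. Lta had 4 matches to GGGAA, Tnf and Ltb 2 each, Fasl and Tnfsf14 1 each, and Tnfsf8, Tnfsf11 and Tnfsf10 had 0. GGAAA matched 4 times in Tnfsf14, 3 times in Tnf and Lta, 2 times in Fasl and 1 time each in Ltb, Tnfsf8, Tnfsf11 and Tnfsf10. TGANTCA, the AP-1 motif, reads the same on both strands and matched in 1 of the 8 promoters, that of Tnfsf14. Of 32851 promoters of the same length, 62.7% held GGGAA, 61.3% held GGAAA and 7.81% held TGANTCA. Both 5-letter motifs are thus found in most promoters, and a match is a description of the letters, not of a bound site.

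The labels were set against the data before the comparisons. Ikzf1, the Ikaros gene, read 10.54, 10.52 and 10.54 in Cre- baseline cells and 10.66, 10.29 and 10.13 in Cre+ baseline cells, and 10.03, 10.22 and 10.08 against 10.14, 9.93 and 9.89 after activation. These values overlapped in both states (limma differences -0.17 and -0.13, adjusted p 0.968 and 0.993), so they did not check the genotype labels. Which exons were deleted, and which ones the probe set covers, is not given in the sources used here. Array medians lay between 4.04 and 4.17. The mean of 8 T cell markers was 9.34 to 10.02 on every array, with Cd4 at group means of 10.79 to 11.53. At baseline, B cell markers were also read well above the array medians, with means of 8.41 to 8.64 in Cre- and 8.24 to 8.37 in Cre+ cells, and myeloid and dendritic markers had means of 5.36 to 6.30. Xist and Y-linked genes showed 1 to 2 female arrays in each group of 3.

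Activation separated the 10 ligands into genes that rose, genes that fell and genes that moved unevenly between arrays. In Cre- cells, 4 of the 10 rose (Tnf, Lta, Tnfsf8 and Tnfsf11) where 9.39% of all genes did, and 1 fell (Tnfsf10) where 9.1% of all genes did. In Cre+ cells, 5 rose (the same 4 and Fasl) against 10.1% of all genes, and Tnfsf10 alone fell, against 10.6%. The median difference over the 10 was 0.46 in Cre- and 0.81 in Cre+ cells, where the median over all genes was 0.00 and -0.02. Between the genotypes, 0 of the 10 passed at baseline, where 0.552% of all genes passed in either direction, and 2 had an unadjusted p under 0.05 in limma (Tnf and Tnfsf11), as did 6.93% of all genes. After activation 1 of the 10, Tnfsf11, was higher in Cre+ cells, against 0.63% of all genes, and 4 had an unadjusted p under 0.05, as did 7.51% of all genes. None passed as lower in Cre+ cells in either state, where 14 of all genes did at baseline and 23 after activation. All tests used 1 limma model, and passing means an adjusted p (Benjamini-Hochberg, all genes tested) under 0.05. No source states that the 3 arrays of a group are separate animals or cultures. Each group held male and female arrays, so it drew on more than 1 animal, but how many is not given. The p-values therefore reflect only how far these arrays spread.

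**Figure D1:**
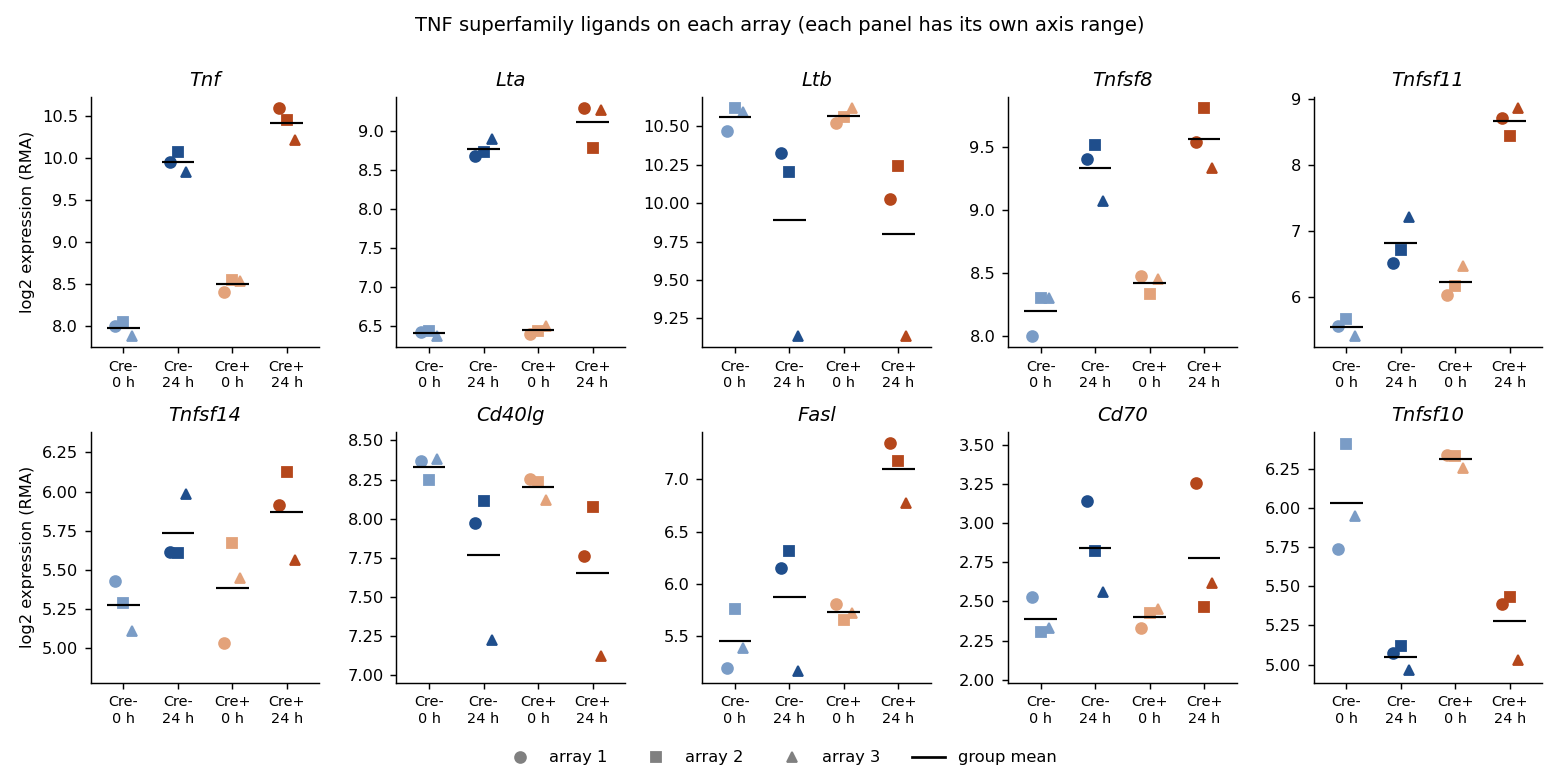
Log2 expression of the 10 ligands on each of 12 arrays, by group, with symbols for the array number and a line at the group mean. Each panel has its own range. Tnfsf11 on the activated Cre+ arrays (8.45 to 8.87) lies above all other arrays, and Tnf, Ltb, Tnfsf8, Cd40lg, Fasl and Tnfsf10 each have their lowest activated value on array 3 of both genotypes.

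Tnf encodes the founding cytokine of the family, which acts through TNFR1 and TNFR2 to drive inflammation. It read 8.01, 8.06 and 7.88 in Cre- baseline cells, 9.95, 10.07 and 9.83 in activated Cre- cells, 8.41, 8.55 and 8.54 in Cre+ baseline cells, and 10.60, 10.45 and 10.22 in activated Cre+ cells. The 4 groups did not overlap: every Cre+ array lay above every Cre- array of the same state, and every activated array above every baseline array. Over all genes, every Cre+ array lay above every Cre- array for 8.82% at baseline and 5.25% after activation. Every activated array lay above every baseline array for 17.7% of all genes in Cre- and 17.3% in Cre+ cells. Every activated array lay below for 17.4% and 19.3%. Activation raised Tnf by 1.97 (SE 0.12), or 3.92-fold, in Cre- cells (limma adjusted p = 1.09e-06) and by 1.92 (SE 0.12), or 3.79-fold, in Cre+ cells (limma adjusted p = 1.19e-06). The genotype difference was 0.52 (SE 0.12, limma adjusted p = 0.104) at baseline and 0.47 (SE 0.12, limma adjusted p = 0.130) after activation, and neither passed. Without the activated arrays numbered 3, the baseline difference passed, with a limma adjusted p of 0.0346. That fit changes the shared estimate of the spread and leaves the baseline values and their difference as they were. With only the baseline arrays fitted, 0 of the 10 ligands passed between the genotypes. The difference between the responses of the genotypes was -0.05, with a 95% confidence interval from -0.41 to 0.31.

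Lta encodes lymphotoxin alpha, which is secreted as a trimer that uses the TNF receptors, or anchored in the membrane by lymphotoxin beta, when it uses the lymphotoxin beta receptor. Its values were 6.43, 6.44 and 6.38 in Cre- and 6.40, 6.44 and 6.51 in Cre+ baseline cells, and 8.69, 8.73 and 8.91 in Cre- and 9.30, 8.79 and 9.27 in Cre+ cells after activation. At baseline the genotypes overlapped within a narrow range. After activation, 2 of the 3 Cre+ arrays stood above all Cre- arrays and the other stood within their range. Lta had the largest rise of the 10 in both genotypes: 2.36 (SE 0.13), or 5.14-fold, in Cre- cells (limma adjusted p = 9.13e-07) and 2.67 (SE 0.13), or 6.36-fold, in Cre+ cells (limma adjusted p = 3.61e-07). The genotype difference after activation was 0.35 (SE 0.13, limma adjusted p = 0.490).

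Ltb encodes lymphotoxin beta, the membrane anchor of that complex. It read 10.47, 10.62 and 10.59 in Cre- and 10.52, 10.56 and 10.62 in Cre+ baseline cells, and 10.33, 10.20 and 9.13 in Cre- and 10.02, 10.24 and 9.14 in Cre+ cells after activation. All activated arrays were below all baseline arrays of their genotype, and array 3 was the lowest of each activated group, apart from the other 2. The mean difference was -0.67 (SE 0.31, limma adjusted p = 0.175) in Cre- and -0.76 (SE 0.31, limma adjusted p = 0.111) in Cre+ cells. Without the activated arrays numbered 3 it was -0.29 in Cre- cells (limma adjusted p = 0.113) and -0.43 in Cre+ cells (limma adjusted p = 0.0184). The Cre+ difference also passed without array 3 of activated Cre- cells alone (limma adjusted p = 0.0243), which changes the shared estimate of the spread and leaves the Cre+ means as they were. Ltb differed between the genotypes by 0.01 at baseline and -0.09 after activation, and leaving out single arrays moved the latter between -0.47 and 0.24.

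Among the genes tested, Ltb, Tnf and Lta are neighbours in this order on chromosome 17, between Lst1 and Nfkbil1. Neither flanking gene passed with activation. The differences in Cre- and Cre+ cells were 0.29 and 0.00 for Nfkbil1 (limma adjusted p = 0.208 and 0.995). For Lst1 they were -0.63 and -0.23 (limma adjusted p = 0.0609 and 0.522). The Lst1 probe set was dim, with group means of 2.80 to 3.44, below the array medians, so its response is uncertain. A second group of tested genes on chromosome 17 holds Tnfsf9, Cd70 and Tnfsf14, followed by Trip10, which encodes an adaptor of the actin cytoskeleton. Trip10 was higher in Cre+ cells by 1.49 (limma adjusted p = 0.00343) at baseline and by 1.10 (limma adjusted p = 0.0200) after activation. The activated difference did not pass without array 1 or 2 of activated Cre- or array 1 of activated Cre+ cells (limma adjusted p up to 0.0816). Tnfsf9 differed by 0.49 and 0.78 at baseline and after activation (limma adjusted p = 0.788 and 0.311), Tnfsf14 by 0.11 and 0.13, and Cd70, a dim probe set, by 0.02 and -0.06. The other ligands lie alone: Tnfsf8 on chromosome 4, Tnfsf11 on 14, Cd40lg on X, Fasl on 1 and Tnfsf10 on 3.

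**Figure D2:**
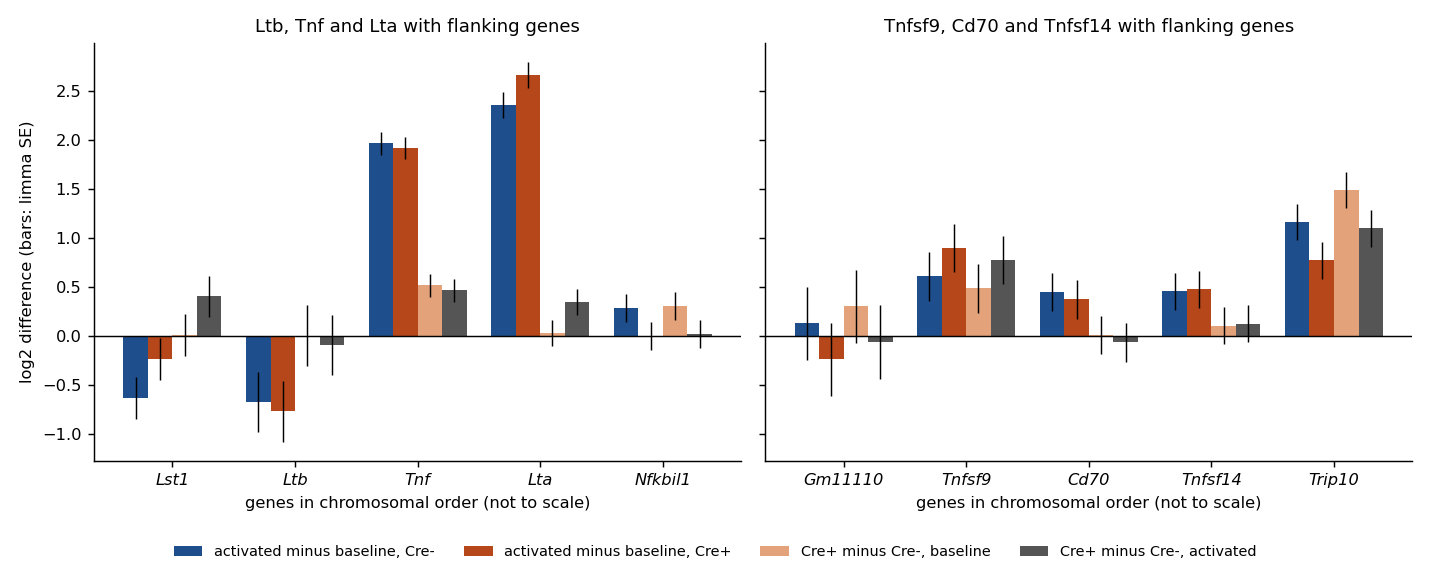
Log2 differences with their limma standard errors for 2 gene clusters of chromosome 17, in chromosomal order and not to scale, with 1 bar per comparison. Tnf and Lta have tall activation bars (1.92 to 2.67) between Ltb and Nfkbil1. Trip10, the next tested gene after Tnfsf14, has genotype bars of 1.49 and 1.10.

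Tnfsf11 encodes RANKL, the ligand of RANK, which drives osteoclast formation and supports dendritic cells and lymph node development. It read 5.57, 5.67 and 5.41 in Cre- baseline cells, 6.51, 6.72 and 7.21 in activated Cre- cells, 6.02, 6.16 and 6.47 in Cre+ baseline cells, and 8.72, 8.45 and 8.87 in activated Cre+ cells. No 2 groups overlapped, and Cre+ baseline cells lay between the Cre- baseline and activated Cre- cells. Activated Cre+ cells were 1.87 (SE 0.19), or 3.64-fold, above activated Cre- cells (limma adjusted p = 0.000685). The baseline difference was 0.67 (SE 0.19, limma adjusted p = 0.252) and did not pass. Activation raised Tnfsf11 by 1.27 (SE 0.19), or 2.40-fold, in Cre- cells (limma adjusted p = 0.000762) and by 2.46 (SE 0.19), or 5.50-fold, in Cre+ cells (limma adjusted p = 6.14e-06). The difference of these responses was 1.19 (SE 0.26), with a 95% confidence interval from 0.62 to 1.77. It did not pass over all genes (limma adjusted p = 0.328), where 0.00863% of all genes, 2 of them, passed.

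The activated genotype difference of Tnfsf11 was 1.71 to 2.07 in 23 alternative analyses and passed in 22 of them. The exception fitted only the 6 activated arrays, with a limma adjusted p of 0.0838 for the same difference. The baseline difference passed without the activated arrays numbered 3 (limma adjusted p = 0.04998). As with Tnf, that fit changes the shared estimate of the spread and not the baseline values. The difference did not pass with only the baseline arrays fitted. After activation, B cell markers had list means of 5.36 to 6.46 in Cre- and 5.86 to 7.06 in Cre+ cells. Between these activated groups 0 of the 13 passed, with a list median 0.64 higher in Cre+ cells. Ms4a1 passed without the activated arrays numbered 3 (1.39, limma adjusted p = 0.0491), and Cd79b, Cd74 and Ebf1 each passed in 1 or 2 of the 12 fits that left out 1 array. Their part in the Tnfsf11 difference was not tested. Of the genes tested, Ier3, Ccn4 and Psrc1 had the pattern most like Tnfsf11 over the 12 arrays, by the root mean square difference of centred log2 values (0.303, 0.323 and 0.323). Ier3, an early response gene, had group means of 3.77, 4.53, 4.33 and 6.77 in the order Cre- baseline, Cre- activated, Cre+ baseline and Cre+ activated. By Pearson correlation the first 3 were Anxa4, Mpzl3 and Psrc1, with r of 0.984, 0.984 and 0.976 over 12 arrays that share their groups.

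**Figure D3:**
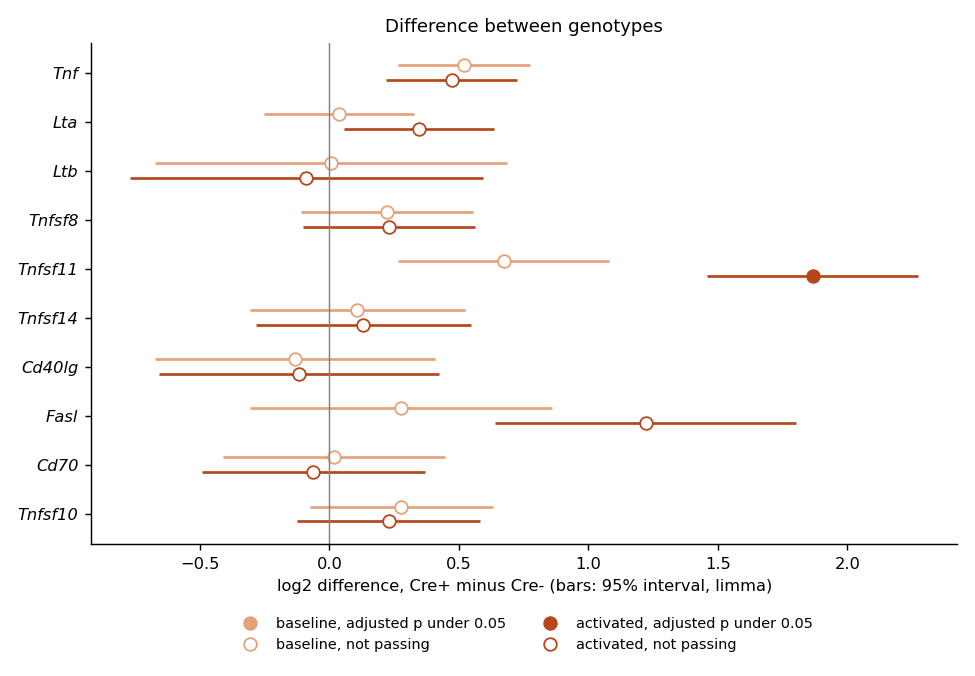
Log2 difference, Cre+ minus Cre-, for each ligand at baseline and after activation, with the 95% interval of the limma fit. Filled points passed over all genes: the only one is activated Tnfsf11 at 1.87, and activated Fasl at 1.22 is the next largest.

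Of the B cell helper and costimulatory ligands, Tnfsf8 rose in both genotypes, and Cd40lg, Tnfsf14 and Cd70 did not pass in any comparison. Tnfsf8 encodes CD30 ligand, a ligand induced on activated T cells. It read 8.0, 8.31 and 8.30 in Cre- and 8.48, 8.34 and 8.46 in Cre+ baseline cells, and 9.40, 9.52 and 9.08 in Cre- and 9.54, 9.81 and 9.33 in Cre+ cells after activation. The activated arrays were all above the baseline arrays. The genotypes overlapped after activation and stood just apart at baseline, with Cre+ arrays above, as for 8.82% of all genes. Tnfsf8 rose by 1.13 (SE 0.15), or 2.19-fold, in Cre- cells (limma adjusted p = 0.000418) and by 1.14 (SE 0.15), or 2.20-fold, in Cre+ cells. The genotype differences were 0.22 at baseline and 0.23 after activation.

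Cd40lg encodes CD40 ligand, the signal by which helper T cells license B cells and dendritic cells. Its values were 8.37, 8.24 and 8.38 in Cre- and 8.25, 8.23 and 8.12 in Cre+ baseline cells, and 7.97, 8.11 and 7.23 in Cre- and 7.76, 8.07 and 7.12 in Cre+ cells after activation. As with Ltb, every activated array lay below the baseline arrays of its genotype, and array 3 of both activated groups lay lowest. The differences with activation were -0.56 (SE 0.25, limma adjusted p = 0.150) in Cre- and -0.55 (SE 0.25, limma adjusted p = 0.153) in Cre+ cells. The Cre+ difference passed without array 2 of activated Cre+ cells, at -0.76 with a limma adjusted p of 0.0467. Without array 3 of the activated group it was -0.28 in Cre+ cells (limma adjusted p = 0.498) and -0.29 in Cre- cells (limma adjusted p = 0.481). Between the genotypes Cd40lg differed by -0.13 at baseline and -0.12 after activation, with confidence intervals from -0.67 to 0.41 and from -0.66 to 0.42.

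Tnfsf14 encodes LIGHT, which binds the herpesvirus entry mediator and the lymphotoxin beta receptor. It read 5.43, 5.29 and 5.11 in Cre- and 5.03, 5.67 and 5.45 in Cre+ baseline cells, and 5.61, 5.61 and 5.98 in Cre- and 5.91, 6.13 and 5.56 in Cre+ cells after activation. The activated Cre- arrays were all above baseline, while 1 activated Cre+ array fell within the baseline range. The differences of 0.46 in Cre- cells (SE 0.19, limma adjusted p = 0.126) and 0.48 in Cre+ cells (SE 0.19) did not pass. Without the activated arrays numbered 3, the Cre+ difference was 0.63 with a limma adjusted p of 0.0253.

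Cd70 encodes the ligand of the costimulatory receptor CD27. It read 2.53, 2.30 and 2.33 in Cre- and 2.33, 2.42 and 2.45 in Cre+ baseline cells, and 3.14, 2.82 and 2.56 in Cre- and 3.26, 2.47 and 2.61 in Cre+ cells after activation. All 12 values were below the array medians, so this probe set was among the dim ones and no fold is given. The differences with activation, 0.45 in Cre- and 0.38 in Cre+ cells, did not pass.

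Of the death ligands, Fasl rose in Cre+ cells and Tnfsf10 fell in both genotypes. Fasl encodes Fas ligand, which kills Fas-bearing cells, activated T cells among them. It read 5.19, 5.77 and 5.39 in Cre- baseline cells, 6.16, 6.31 and 5.17 in activated Cre- cells, 5.81, 5.65 and 5.73 in Cre+ baseline cells, and 7.34, 7.18 and 6.78 in activated Cre+ cells. The activated Cre+ arrays were above all others, while array 3 of activated Cre- cells was below every baseline array. Fasl rose by 1.37 (SE 0.27), or 2.59-fold, in Cre+ cells (limma adjusted p = 0.00380). In Cre- cells the difference was 0.43 (SE 0.27, limma adjusted p = 0.335), and without array 3 of activated Cre- cells it was 0.78 and passed (limma adjusted p = 0.0168).

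Between the activated genotypes every Cre+ array of Fasl lay above every Cre- array, as for 5.25% of all genes. Fasl differed by 1.22 (SE 0.27), or 2.33-fold, and missed the threshold (limma adjusted p = 0.0773). It passed without the activated arrays numbered 3 (limma adjusted p = 0.0193). Over 23 alternative analyses the activated genotype difference of Fasl ran from 0.87 to 1.44 and passed in 3. It was smallest, at 0.87, without array 3 of activated Cre- cells. The difference of the responses was 0.94 (SE 0.38, limma adjusted p = 0.992), with a 95% confidence interval from 0.12 to 1.77, and it was 0.59 without array 3 of activated Cre- cells. For the 6 ligands other than Tnf, Lta, Tnfsf11 and Fasl, the difference of responses lay between -0.09 and 0.02. The widest interval was that of Ltb, from -1.06 to 0.87, and the narrowest that of Tnfsf8, from -0.46 to 0.47. Differences inside a ligand's own interval were not resolved. NK and innate lymphoid markers, genes of another Fasl-bearing cell type, had means of 4.13 to 4.30 on activated Cre- and 4.52 to 4.86 on activated Cre+ arrays. Among them Eomes, a T-box factor also used by cytotoxic T cells, had means of 6.94 and 8.42, and Ncr1, an NK receptor gene, had 3.32 and 3.49, below the array medians. None of the 6 passed between the activated genotypes. Their list median was 0.25 higher in Cre+ cells, where the median over all genes was -0.01. The part of these markers in the Fasl difference was not tested.

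Tnfsf10 encodes TRAIL, which engages the death receptor of Tnfrsf10b. It read 5.74, 6.41 and 5.95 in Cre- and 6.34, 6.33 and 6.26 in Cre+ baseline cells, and 5.07, 5.12 and 4.96 in Cre- and 5.39, 5.43 and 5.03 in Cre+ cells after activation. Every activated array was below every baseline array, and the genotypes overlapped in both states. Tnfsf10 was lower by 1.97-fold in Cre- cells (log2 difference -0.98, SE 0.16, limma adjusted p = 0.00157) and by 2.04-fold in Cre+ cells (-1.03, SE 0.16, limma adjusted p = 0.00105).

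**Figure D4:**
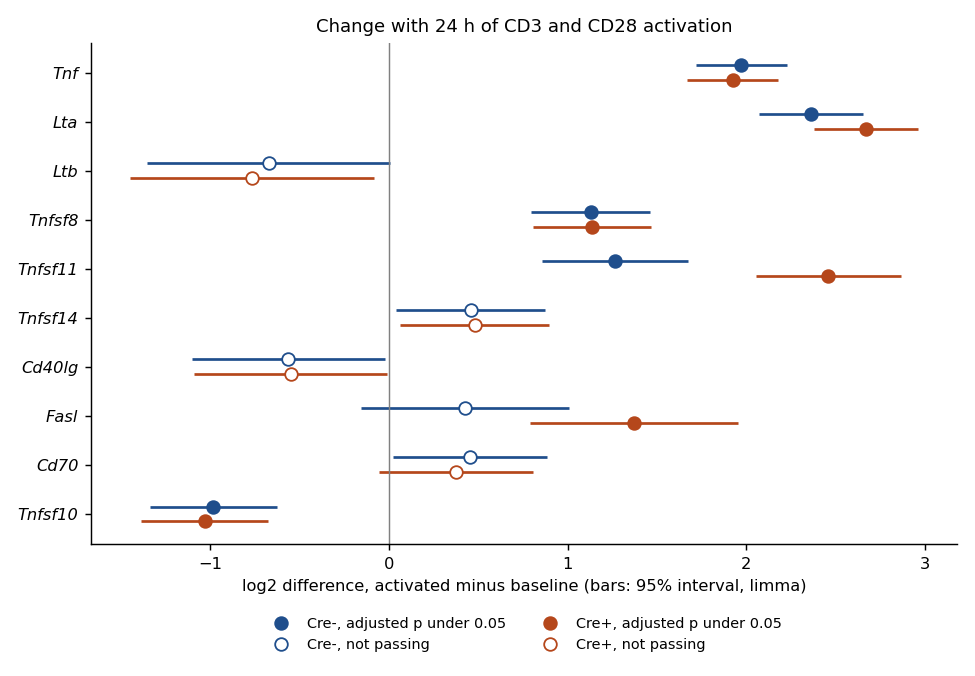
Log2 difference, activated minus baseline, for each ligand in Cre- and Cre+ cells, with the 95% interval of the limma fit and filled points for those that passed over all genes. Lta is highest (2.36 and 2.67), Tnfsf10 is lowest (-0.98 and -1.03), and Tnfsf11 and Fasl lie farther to the right in Cre+ than in Cre- cells.

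Markers of other cell types moved with activation. Over all genes, 9.39% rose and 9.1% fell in Cre- cells, and 10.1% rose and 10.6% fell in Cre+ cells. All 13 B cell markers fell in Cre- cells and 11 of 13 in Cre+ cells, with list means of 5.36 to 6.46 and 5.86 to 7.06 after activation. Cd79a, a chain of the B cell receptor complex, went from 9.65 to 5.64 in Cre- and from 9.55 to 6.34 in Cre+ cells. Myeloid and dendritic markers fell at 12 of 13 genes in Cre- and 11 of 13 in Cre+ cells, to means of 3.75 to 4.18, near the array medians. Of the NK and innate lymphoid markers 5 of 6 fell in Cre- cells, and in Cre+ cells 3 of 6 fell and Eomes rose. Of 8 T cell markers, 1 fell in Cre- and 4 fell in Cre+ cells, and neither of 2 CD8 T cell markers passed in any comparison. In these bulk samples, fewer cells of a type and less RNA per cell cannot be told apart, and B cells, myeloid cells and NK cells can themselves express several of the ligands. The rises of Tnf, Lta, Tnfsf8 and Tnfsf11 went the opposite way to these lists, and the fall of Tnfsf10 and the negative differences of Ltb and Cd40lg went the same way. The part of these cells in any ligand's difference was not tested. Of 16 cell cycle genes, 3 rose in each genotype. The list had means of 6.29 to 7.05 on 10 arrays and of 8.92 and 8.54 on array 3 of activated Cre- and Cre+ cells, the arrays on which Tnf, Ltb, Tnfsf8, Cd40lg, Fasl and Tnfsf10 were lowest, and Tnfsf11 highest, of both Cre- and Cre+ activated groups.

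**Figure D5:**
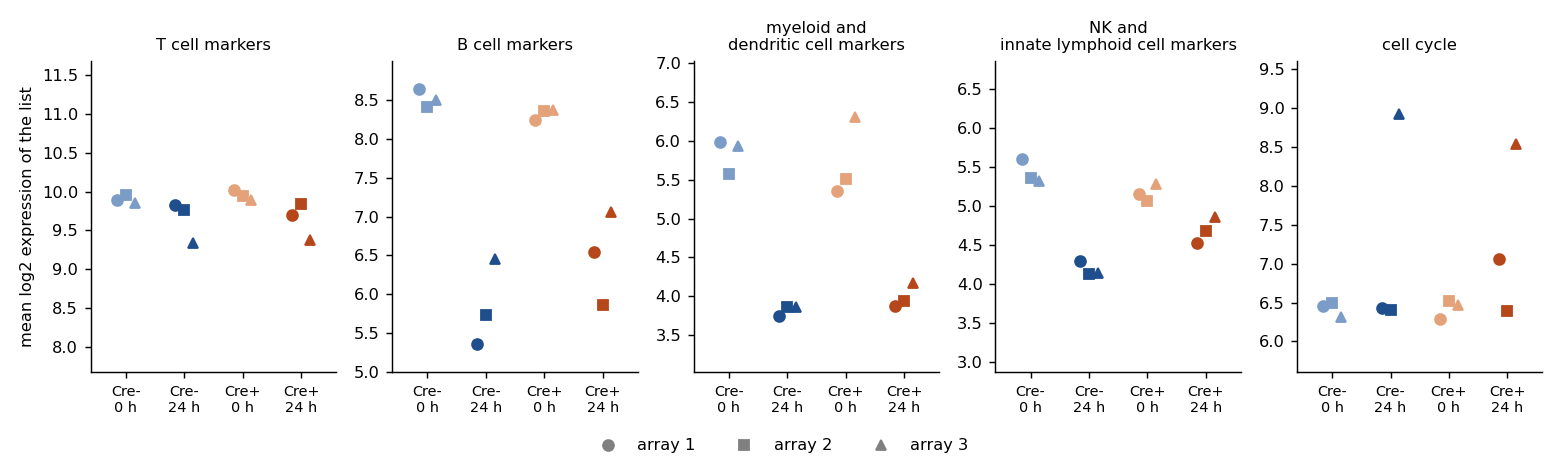
Mean log2 expression of 5 gene lists on each array, by group, with symbols for the array number. B cell markers drop from 8.24 or more at baseline to 7.06 or less after activation, and the cell cycle list is high on array 3 of both activated groups (8.92 and 8.54).

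The rest of the ligand family was measured at 7 of 8 listed genes. In Cre- cells 1 of 7 rose and 0 fell, where 9.39% and 9.1% of all genes did. In Cre+ cells 3 of 7 rose and 0 fell, where 10.1% and 10.6% of all genes did. Tnfsf4, which encodes OX40 ligand, rose by 2.20 in Cre- (limma adjusted p = 0.00115) and 2.51 in Cre+ cells (limma adjusted p = 0.000443). It read 2.55, 2.90 and 2.73 against 4.08, 4.21 and 3.84 in Cre- and Cre+ baseline cells, and 4.05, 5.08 and 5.64 against 6.96, 5.98 and 6.71 in activated ones. The Cre- baseline values were all below the array medians. So were arrays 1 and 3 of Cre+ baseline and array 1 of activated Cre- cells, by less. This probe set was thus dim on those arrays, the size of its differences is uncertain and no fold is given. Every Cre+ array was above every Cre- array of the same state, as for 8.82% of all genes at baseline and 5.25% after activation. Neither the baseline difference of 1.32 nor the activated one of 1.62 passed (limma adjusted p = 0.204 and 0.0671). The activated difference passed without the activated arrays numbered 3, at 1.90 with a limma adjusted p of 0.0267. Tnfsf15, which encodes TL1A, was the 1 of 7 that passed between activated genotypes, by 1.03 (limma adjusted p = 0.0492), where 0.63% of all genes were higher. Of the 12 fits that left out 1 array, it passed in 2, without array 3 of activated Cre- or array 2 of activated Cre+ cells. Tnfsf15 also rose with activation in Cre+ cells by 1.09, and Tnfsf9, the 4-1BB ligand gene, by 0.90. The Tnfsf9 rise did not pass without array 1 or 3 of either Cre+ group (limma adjusted p up to 0.0975).

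Of the 13 receptor genes for the 10 ligands, 2 rose in Cre- cells and 4 rose and 2 fell in Cre+ cells. The shares of all genes were 9.39% rising and 9.1% falling in Cre-, and 10.1% and 10.6% in Cre+ cells. Tnfrsf8, the CD30 gene, rose by 1.62 in Cre- and 2.40 in Cre+ cells, as did its ligand gene Tnfsf8. Tnfrsf10b, the TRAIL receptor gene, rose by 1.96 and 1.94 while Tnfsf10 fell. In Cre+ cells Cd40 rose by 1.24 and Fas by 1.19, and Cd27, the receptor gene of Cd70, fell by 1.30 and Tnfrsf1a by 0.91. The fall of Tnfrsf1a did not pass without array 1 or 2 of Cre+ baseline or array 1 or 3 of activated Cre+ cells (limma adjusted p up to 0.123). Tnfrsf11a, the RANK gene, stayed near the array medians in every group (means 3.96 at baseline and 3.84 after activation in Cre- cells, 3.97 and 3.79 in Cre+ cells). None of the 13 passed between the genotypes in either state, where the list medians were -0.10 at baseline and 0.05 after activation. Without the activated arrays numbered 3, Fas (0.96) also rose in Cre- cells. Tnfrsf23, a decoy TRAIL receptor gene, then rose in both genotypes, by 1.72 in Cre- and 1.21 in Cre+ cells (limma adjusted p = 0.00560 and 0.0278). In the same fit Cd27 was lower in activated Cre+ than in activated Cre- cells, by -0.85 (limma adjusted p = 0.0141).

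Genes downstream of these receptors and of the T cell receptor were counted in the same way, against the same shares of all genes. Of 10 NF-kappaB subunit and inhibitor genes, 5 rose and 1 (Nfkbie, an inhibitor) fell in Cre- cells, and 6 rose in Cre+ cells, with medians of 0.73 and 0.76. Nfkb2, the p100 subunit gene of the noncanonical branch, rose by 1.361 and 1.466. Of 14 NFAT, AP-1 and EGR factors, 6 rose and 3 fell in Cre- cells and 8 rose and 1 fell in Cre+ cells. Egr2, Egr3 and Fosl1 rose by 1.90, 1.56 and 2.22 in Cre- cells and by 1.47, 1.25 and 1.83 in Cre+ cells, and Nfatc2 fell in both genotypes. Among 11 receptor adaptor and death signalling genes, Traf6 rose by 1.05 and 0.99 and Traf5 fell by 0.99 and 1.18 in Cre- and Cre+ cells, Casp8 fell by 0.36 and 0.31, and Traf1 rose in Cre+ cells. Of 10 genes of ligand shedding and mRNA decay, Furin, a protease, rose by 1.31 and 1.51, and Zfp36l2, which binds AU-rich messages, fell by 1.15 and 1.29. Some calls were lost without 1 array: Traf5 in Cre- cells without array 1 or 3 of baseline or 3 of activated Cre- cells (limma adjusted p up to 0.0828), and Zfp36l2 in Cre- cells without array 1 or 2 of Cre- baseline (up to 0.0549). Casp8 did not pass in Cre- cells without array 2 or 3 of either Cre- group (up to 0.0663), nor in Cre+ cells without array 1 or 3 of either Cre+ group (up to 0.117). Nfkbie did not pass without array 1 of Cre- baseline (0.0586), nor Nfatc2 in Cre+ cells without array 1 of activated Cre+ cells (0.0539). None of the genes of these 4 lists passed between the genotypes in either state.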

How the data were processed

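The authors deposited log2 values from RMA, with affy 1.36.1 and R 2.15.1 named in the submitters' processing notes. They ran from 0.542 to 13.2. Neither the chip definition nor the genome build of these values is given in the sources used. Of 25206 probe sets, 23185 paired with 1 gene and were tested, and 2021 were left out. The groups came from the labels of genotype and state. All 12 arrays entered 1 model of 4 group means in limma 3.58.1 under R 4.3.3, with 8 residual and 3.55 prior degrees of freedom. In each of 5 comparisons, passing means a two-sided p, adjusted by Benjamini-Hochberg over all genes tested, under 0.05, with no fold minimum. The comparisons share arrays with each other. The code was tested on simulated data. SE values are the moderated ones. No set test was run, and the precision is limited by 3 arrays per group.

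All 10 members are named at any value. From each pathway list up to 3 passing genes with the smallest adjusted p in a comparison could be named, with the receptors of described members. Markers and neighbouring genes could be named at any value, and Tnfsf11's 3 likest genes by its centred values. Nfkbie and Nfatc2 were named after their values were seen. The members and lists were chosen with earlier results of these data known. Listed genes not measured here were not analysed. Alternatives changed 1 choice at a time. Those on the pathway lists were added after seeing the data.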

Additional observations from a re-analysis of the deposited data

How the results depend on the processing

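Across 44 values of the members and 1004 alternative values, 961 kept their direction and their side of the threshold, 21 passed only under the alternative, 2 passed only in the analysis reported, and 20 changed sign with neither passing. These counts leave out the difference of responses of the 6 ligands other than Tnf, Lta, Tnfsf11 and Fasl. Those values lay near 0 (-0.09 to 0.02), where a sign changes easily, and their alternatives were not counted. The 2 were activated Tnfsf11 between genotypes when only the activated arrays were fitted and Tnfsf10 in Cre- cells under a 2-fold minimum. With array weights, 2 members passed between genotypes at baseline (0 in the analysis reported), 4 after activation (1), 10 with activation in Cre+ cells (6) and 1 in the difference of responses (0). Of all 23185 genes, 321, 2416, 8292 and 143 passed in the same comparisons with array weights. Without the activated arrays numbered 3, 2 passed in each genotype comparison, where 266 of all genes passed at baseline and 229 after activation. With only the arrays compared, 0 passed after activation, where 9 of all genes did. Arrays of the same number did not pair throughout: correlations of their deviations ran from -0.09 to 0.73. Some also differed in sex, such as array 3 of Cre- cells, male at baseline and female after activation. An array correlated best with its own number in 14 of 36 cases. The highest value, 0.73, was between array 3 of activated Cre- and array 3 of activated Cre+ cells, which thus shared a deviation. With the replicate number as a block, 2 members passed between activated genotypes (Tnfsf11, and Fasl at a limma adjusted p of 0.0449), and 5 genes in place of 2 in the difference of responses. Over all genes, 189 passed between activated genotypes with the block.

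Signs changed for small differences. With array weights, Cd70 stood at -0.0011 at baseline and 0.25 after activation between genotypes, and Tnf at 9.3e-05 in the difference of responses. Leaving out 1 array gave genotype differences at baseline from -0.040 to 0.036 for Ltb, -0.025 to 0.086 for Cd70 and -0.036 to 0.28 for Tnfsf14. After activation they ran from -0.47 to 0.24 for Ltb, -0.30 to 0.095 for Cd70 and -0.39 to 0.15 for Cd40lg, and the Tnf difference of responses from -0.13 to 0.053.

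Counts over all genes moved more. Of 128 genes between genotypes at baseline, array weights gave 321, only the arrays compared 251, no activated arrays numbered 3 266, a sex covariate 85, a mean of at least 5 83, a 2-fold minimum 61 and leaving out 1 array 50 to 199. Of 169 after activation these were 2416 with array weights, 9 with only the arrays compared, 112 with a sex covariate, 95 under a 2-fold minimum and 72 to 283 without 1 array. Of 4287 with activation in Cre- cells, 1548 passed a 2-fold minimum. Of 4795 in Cre+ cells, 1683 did, array weights gave 8292, and 3148 and 3175 remained without array 1 or 3 of activated Cre+ cells. Of 2 in the difference of responses, array weights gave 143, no activated arrays numbered 3 11, a sex covariate 4, a mean of at least 5 0, and leaving out 1 array up to 25. Cd70 has no value under the mean of at least 5. The cause of these moves was not tested, beyond the smaller number of arrays or genes that some alternatives use.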
